A study of Mus musculus with 9 samples.

Results

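The genes described here are 40 members of the PPAR-alpha and fatty acid oxidation programme of mouse liver. They were chosen by name, for their place in PPAR-alpha signalling, mitochondrial and peroxisomal beta-oxidation, ketone body metabolism or the wider set of PPAR-alpha targets. The choice was made with earlier results of these data known, so shares of called members are descriptive. A member also needed a mean value of at least 10 over the libraries. All 40 passed, out of 19944 genes in the deposited table and 15238 with a mean of at least 10. The livers came from male mice 60 days old on the FVB background, fed normal chow and collected together. The 3 genotypes, with 3 libraries each, were Snd1 knockout (KO), a knock-in with a mutated SND1 Tudor domain (KI) and wild type (WT). SND1 is a multidomain protein whose Tudor domain binds methylated arginine. The labels ask what that domain contributes to transcription, and they give neither the mutated residues, the way the KO allele was made, nor whether animals were littermates or pooled.

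PPAR-alpha is a nuclear receptor that binds DNA as a heterodimer with RXR at direct repeats of a hexamer spaced by a single base. Fatty acids and their derivatives activate it, and in the fasting liver it raises the genes that burn fatty acids and make ketone bodies. Long-chain acyl groups enter mitochondria through the carnitine shuttle and are shortened there by repeated cycles of dehydrogenation, hydration, oxidation and thiolysis. Peroxisomes shorten very long and branched chains with their own set of enzymes, which are among the PPAR-alpha targets most strongly induced in rodents.

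Values are the deposited normalized counts, which are gene read counts divided by a size factor for each library. Log2 fold changes are on the scale of log2(value + 1), with the standard error (SE) of a fit by limma to all 9 libraries, and other errors are standard deviations (SD, n = 3 per genotype). A gene is called higher or lower at a limma adjusted p under 0.05, with Benjamini-Hochberg adjustment over all 15238 genes, and all tests are two-sided. Each library has an animal number of its own in the labels, which do not give litters or cages, so p-values reflect the spread between these 9 animals.

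The libraries held 59678412 to 66384374 recovered reads. Snd1 itself averaged 334 ± 96.2 in KO livers, 6303 ± 1423 in KI livers and 7303 ± 1014 in WT livers, so the KO label holds for the targeted gene. It was not called between KI and WT (log2 fold change -0.23 ± 0.23, limma adjusted p = 0.745), so its counts cannot check those 2 labels against each other. The labelled cell type is hepatocyte, and albumin (Alb) was at 1767535 or more in every library. Pancreatic acinar markers, 14 in all, made up 5.91% of KI_3 reads, 1.24% of WT_3 reads and 0.515% of KI_1 reads, against at most 0.00525% in the other 6 libraries. Acute phase genes took 8.6%, 21.6% and 22.3% of the reads in KO_1, KO_2 and KO_3, 1.78% to 2.71% in the KI libraries and 2.21% to 2.57% in the WT libraries. The 9 neutrophil and monocyte markers in the table summed to 243, 1062 and 1877 in KO_1, KO_2 and KO_3, 193 to 559 in KI and 130 to 384 in WT. The 13 Kupffer cell and macrophage markers summed to 30113, 26226 and 53031 in KO_1, KO_2 and KO_3, 21252 to 35574 in KI and 17808 to 32348 in WT, and 3 of them were called higher in KO against WT. The part of these cells in the results was not tested. Adiponectin (Adipoq), which defines adipocytes, reached at most 4.57. The 4 adipocyte markers in the table summed to 1334, 1817 and 1838 in KO_1, KO_2 and KO_3, 1115 to 1415 in KI and 1243 to 1491 in WT. Of these markers 2 were tested, with log2 fold changes of 1.22 and -0.46 in KO against WT, and neither was called. The part of adipocytes in the results was not tested. In whole tissue, fewer cells of a type and less RNA per cell cannot be told apart.

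Acaa1a and Acaa1b encode the peroxisomal thiolases and are near copies on chromosome 9. Their longest protein-coding transcripts were 96.6% identical over 1428 aligned bases, with a longest identical run of 327 bases. The windows from 250 bases before to 50 after their start sites are shown because they differ almost throughout. The best local alignment of these windows covered 22 bases, of which 18 were identical. Both are RefSeq sequence on GRCm38.p6, printed 5′ to 3′ on the strand of the gene, in lower case throughout.
Acaa1b, chr9:119157044-119157343, minus strand: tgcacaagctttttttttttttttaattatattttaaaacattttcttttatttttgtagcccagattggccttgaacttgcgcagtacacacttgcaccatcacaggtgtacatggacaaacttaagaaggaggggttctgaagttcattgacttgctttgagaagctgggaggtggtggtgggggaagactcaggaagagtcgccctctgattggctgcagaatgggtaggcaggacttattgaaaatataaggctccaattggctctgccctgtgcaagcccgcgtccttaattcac
Acaa1a, chr9:119341044-119341343, plus strand: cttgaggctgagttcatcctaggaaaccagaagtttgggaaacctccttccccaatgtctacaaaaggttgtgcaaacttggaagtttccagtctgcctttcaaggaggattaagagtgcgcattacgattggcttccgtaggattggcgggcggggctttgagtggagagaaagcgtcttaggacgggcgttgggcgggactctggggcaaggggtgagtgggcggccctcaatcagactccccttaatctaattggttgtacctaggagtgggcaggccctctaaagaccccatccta

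No such window was used for Acaa2, Vnn1, Angptl4, Decr1, Hsd17b4 and Crat. Windows for the other 34 of the 40 members came from the same RefSeq table. They were searched on both strands for the direct repeat bound by PPAR-alpha with RXR, 2 copies of AGGTCA with any 1 base between them, allowing at most 2 mismatches in the 12 fixed letters. A match was found in 5 members, 14.7% of the 34, where 4.4% of all 27025 genes with a window held one. The windows of the members and of all genes were not chosen alike, so these shares are descriptive. Of the 15 members with a window that were called lower in KO, 3 held a match, and 2 of the other 19 did. The matches were in Fabp1 with 1 mismatch, and in Etfa, Acot4, Slc25a20 and Creb3l3 with 2. The windows of the 3 called genes are shown, with the match in capitals, read from the reverse strand in each.
Fabp1, chr6:71199629-71199928, plus strand: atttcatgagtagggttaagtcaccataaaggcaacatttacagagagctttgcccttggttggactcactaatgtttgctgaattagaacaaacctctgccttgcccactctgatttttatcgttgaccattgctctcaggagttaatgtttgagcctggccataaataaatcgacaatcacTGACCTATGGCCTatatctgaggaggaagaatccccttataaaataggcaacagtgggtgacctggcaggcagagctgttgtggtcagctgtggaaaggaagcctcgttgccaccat
Etfa, chr9:55512194-55512493, minus strand: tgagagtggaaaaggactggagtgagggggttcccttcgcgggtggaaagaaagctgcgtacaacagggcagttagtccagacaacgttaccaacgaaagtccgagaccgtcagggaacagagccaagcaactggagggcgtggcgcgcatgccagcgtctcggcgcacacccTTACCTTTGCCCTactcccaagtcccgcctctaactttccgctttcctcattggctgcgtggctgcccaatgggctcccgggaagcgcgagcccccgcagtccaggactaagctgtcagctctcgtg
Acot4, chr12:84038129-84038428, plus strand: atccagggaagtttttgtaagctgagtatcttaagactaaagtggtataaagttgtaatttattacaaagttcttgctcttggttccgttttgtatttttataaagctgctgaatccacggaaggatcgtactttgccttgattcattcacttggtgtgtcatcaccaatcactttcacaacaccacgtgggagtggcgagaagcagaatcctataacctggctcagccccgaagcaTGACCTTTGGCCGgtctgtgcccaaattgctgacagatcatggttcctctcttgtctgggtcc
The match began at position -67 in Fabp1, -77 in Etfa and -13 in Acot4, counted from 0 at the annotated start site. A match is a description of these letters, and binding was not measured here.

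Loss of SND1 was examined by setting KO against WT. Fatty acid oxidation genes were lower in KO livers far more often than higher. Of the 40 members, 16 fell and 1 rose. That is 40% of members called lower, beside 4.20% of all genes tested, and 2.5% called higher, beside 4.63% of all genes tested. The 16 were the peroxisomal genes Ehhadh, Acaa1b, Decr2, Abcd3 and Pex11a, the thioesterase genes Acot1, Acot2, Acot3 and Acot4, the mitochondrial genes Hadh, Decr1, Etfa and Etfb, the carrier and activation genes Fabp1 and Acsl1, and the aldehyde dehydrogenase gene Aldh3a2. Carnitine acetyltransferase (Crat) was the member that rose. The median log2 fold change of the members was -0.37, and that of all genes tested was 0.00. Values in the KO and WT groups did not overlap for 24 members that were lower and 3 that were higher, beside 14.2% and 15% of all genes.

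**Figure D1:**
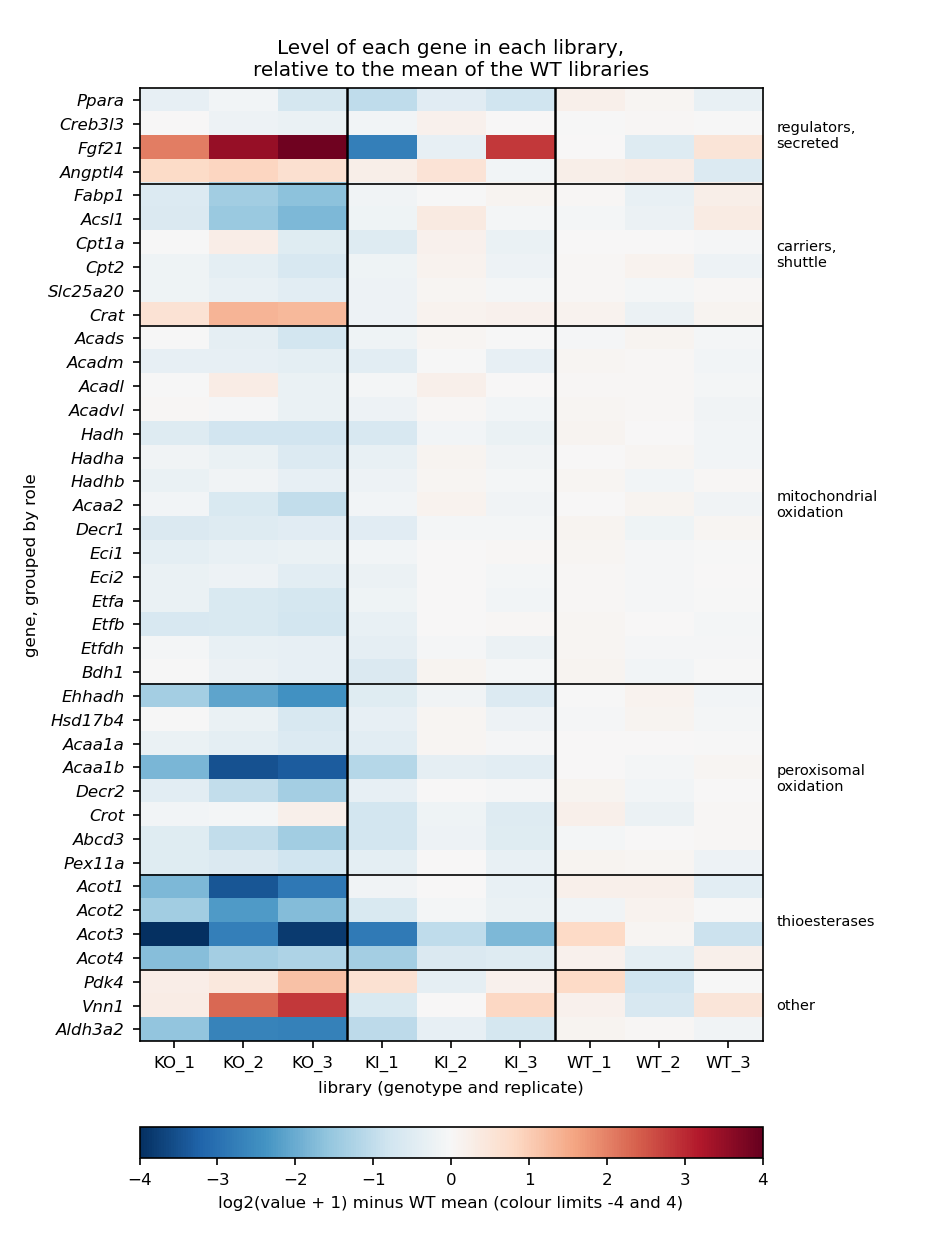
Each row is a member and each column a library, grouped as KO, KI and WT; colour gives log2(value + 1) minus the mean of the 3 WT libraries, with colour limits at -4 and 4 and black lines between roles and genotypes. Ehhadh, Acaa1b, Acot1 to Acot3 and Aldh3a2 are the darkest blue in the KO columns. Fgf21, Vnn1 and Crat are red there, palest in KO_1, where Vnn1 is close to the WT mean.

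The deepest falls were in a small set of peroxisomal and acyl-CoA hydrolysing enzymes. Acaa1b had 8803, 2795 and 3134 normalized counts in KO livers, against 31268, 29376 and 33062 in WT livers. All KO libraries lay far below all WT libraries, and KO_1 was the highest of them. The fold change was 7.33-fold lower in KO (log2 fold change -2.87 ± 0.38, SE, limma adjusted p = 0.00227). Ehhadh, the peroxisomal bifunctional enzyme that hydrates and then dehydrogenates acyl-CoA, had 5915, 3496 and 2788 in KO livers, against 14872, 16562 and 13844 in WT livers. It fell by 1.96 on the log2 scale (SE 0.24, limma adjusted p = 0.00151), with no overlap between the groups. Aldh3a2, which oxidises long-chain fatty aldehydes, had 4512, 2081 and 2040.5 in KO livers, against 14475, 13673 and 12031 in WT livers. That was 4.99-fold lower (log2 fold change -2.32 ± 0.29, limma adjusted p = 0.00169), and again the groups did not overlap.

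The acyl-CoA thioesterase genes hydrolyse fatty acyl-CoA to free fatty acid and CoA. Acot1 encodes the cytosolic enzyme, Acot2 the mitochondrial one and Acot3 and Acot4 peroxisomal ones, and all 4 fell in KO. Acot1 had 320.5, 104 and 154 in KO livers, against 1287, 1282 and 836 in WT livers (log2 fold change -2.68 ± 0.34, limma adjusted p = 0.00193). For Acot2 the counts were 83.2, 44.6 and 65.2 in KO livers, against 201, 242 and 220.3 in WT livers (log2 fold change -1.81 ± 0.26, limma adjusted p = 0.00346). The highest KO library stood below the lowest WT library for both genes. Acot3 was the least abundant of the group, at 4.06, 35.5 and 16.3 in KO livers, against 428, 255 and 133 in WT livers, and its fold change of 16.7 rests on low KO counts (log2 fold change -4.06 ± 0.73, limma adjusted p = 0.00918). Acot4 had 832, 1052 and 1156 in KO livers, against 3103, 2094 and 3120.1 in WT livers (log2 fold change -1.44 ± 0.24, limma adjusted p = 0.00721).

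The thioesterase genes are neighbours, in the order Acot2, Acot1, Acot4 and Acot3, on chromosome 12 from 83987861 to 84060402 of GRCm38 (GENCODE M21), a stretch of 72.5 kb. The 7 other tested genes within 200 kb did not pass in KO against WT, with limma adjusted p from 0.288 to 0.891. The nearest on either side, Riox1 and Acot6, had log2 fold changes of -0.22 (adjusted p = 0.569) and 0.14 (adjusted p = 0.887). Acot6, a further thioesterase gene of the same family, thus gave a value close to 0 beside its lowered neighbours. Transcripts of Acot1 and Acot2 were 94.3% identical over 1330 aligned bases, those of Acot1 and Acot3 87.3% identical, and the other pairs 79.3% to 86.8%. How reads shared between such copies were assigned is not given in the sources used here, so the split within the family is uncertain.

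**Figure D2:**
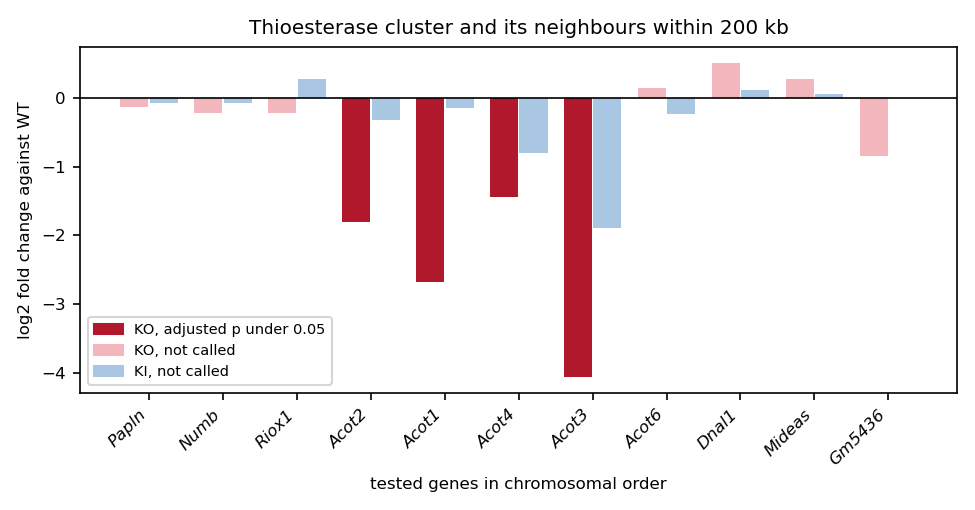
Bars give the log2 fold change against WT for the tested genes around the thioesterase cluster in chromosomal order, KO left and KI right, with genes called in KO in dark red. The 4 cluster genes reach -1.44 to -4.06 in KO, and the neighbours lie between -0.84 and 0.51.

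In the peroxisomal pathway the other members fell less or did not pass the test. Abcd3, which encodes a transporter for acyl-CoA into the peroxisome, averaged 13610.4 ± 4249.5 in KO livers and 25453 ± 1111 in WT livers (log2 fold change -0.95 ± 0.22, limma adjusted p = 0.025). Decr2, a dienoyl-CoA reductase needed for unsaturated chains, averaged 7389 ± 2482 in KO livers and 13498 ± 1029 in WT livers (log2 fold change -0.92, limma adjusted p = 0.0267). Pex11a, which acts in peroxisome division, averaged 3504 ± 381 in KO livers and 5395 ± 597 in WT livers (log2 fold change -0.62, limma adjusted p = 0.0249). Hsd17b4, the other bifunctional enzyme, had log2 fold change -0.32 (adjusted p = 0.303), and Acaa1a had -0.41 (adjusted p = 0.102). Crot, which makes acylcarnitines for export from peroxisomes, stood at 25221 ± 3278 in KO livers and 25115 ± 3675 in WT livers, a log2 fold change of 0.01 ± 0.18. So 5 of 8 peroxisomal members fell and 3 did not pass, with a median log2 fold change of -0.77.

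Pairs of enzymes for the same step were unequal in their response, and a ratio within a library does not depend on scaling. Acaa1b to Acaa1a was 0.935, 0.324 and 0.402 in KO livers, 1.65, 2.02 and 2.14 in KI livers and 2.7, 2.57 and 2.96 in WT livers. Ehhadh to Hsd17b4 was 0.237, 0.166 and 0.171 in KO livers, 0.528, 0.501 and 0.466 in KI livers and 0.601, 0.597 and 0.573 in WT livers. For both ratios the 3 genotypes did not overlap, with KO lowest, KI between and WT highest. Each of the 6 pairwise comparisons gave an exact two-sided permutation p = 0.1, the smallest that 3 libraries against 3 allow, and the ratios were chosen after their values were seen. Per kilobase of annotated exon, the level of Acaa1b in WT livers was 15920.2 ± 939 and that of Acaa1a 2583 ± 48.4. In KO livers the levels were 2503 for Acaa1b and 1951 for Acaa1a. All annotated exons span 1962 bases for Acaa1b and 4414 for Acaa1a, while their longest protein-coding transcripts have 1689 and 1762. The gap in WT and the order in KO therefore depend on the length used, and by transcript length Acaa1a would be the higher in KO. The read split between these near copies is uncertain, and Acaa1b shares 11.4% of its exon bases with Dlec1 on the opposite strand.

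**Figure D3:**
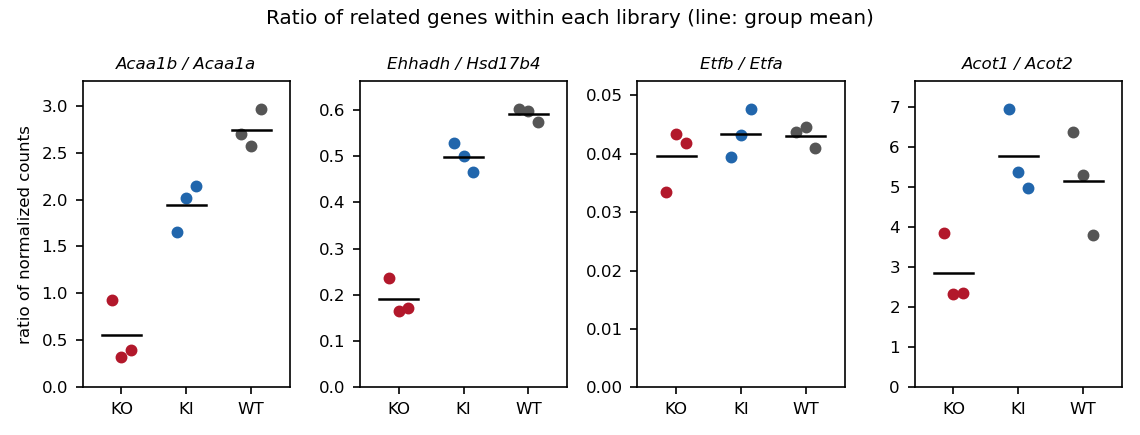
Points are the ratios of normalized counts of 2 related genes within each library, by genotype, with a line at the group mean; axes start at 0. Acaa1b to Acaa1a and Ehhadh to Hsd17b4 are ordered KO, KI, WT without overlap, while Etfb to Etfa overlaps between genotypes.

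Mitochondrial beta-oxidation moved less. Of 15 members, 4 fell and 11 did not pass, with a median log2 fold change of -0.33. All 4 calls, Hadh, Decr1, Etfa and Etfb, were lost when libraries were scaled to totals without acute phase and pancreas genes, where their log2 fold changes were -0.43, -0.27, -0.27 and -0.40 with limma adjusted p of 0.105, 0.331, 0.199 and 0.133. Hadh, the hydroxyacyl-CoA dehydrogenase for shorter chains, had 10869.8, 9136 and 8976 in KO livers, against 16473, 15530.1 and 14312 in WT livers (log2 fold change -0.68 ± 0.15, limma adjusted p = 0.0232). Etfa and Etfb encode the subunits of the flavoprotein that takes electrons from the acyl-CoA dehydrogenases, and both fell. Etfa averaged 12896 ± 2072 in KO livers and 18372 ± 612 in WT livers (log2 fold change -0.52, limma adjusted p = 0.0389). Etfb averaged 504 ± 22.9 in KO livers and 791 ± 41.8 in WT livers (log2 fold change -0.65, limma adjusted p = 0.013). Their ratio was 0.0396 ± 0.00533 in KO livers and 0.0431 ± 0.00181 in WT livers, and the groups overlapped (exact two-sided permutation p = 0.4). Etfb shares 53.0% of its exon bases with Gm45233 on the same strand, and how such reads were counted is not given, so its level cannot be set against that of Etfa.

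Decr1, the mitochondrial dienoyl-CoA reductase, averaged 8567 ± 364 in KO livers and 12341 ± 1338 in WT livers (log2 fold change -0.52, limma adjusted p = 0.0409). The acyl-CoA dehydrogenases that open each cycle did not pass the test. Their log2 fold changes were -0.36 for Acads, -0.34 for Acadm, 0.01 for Acadl and -0.09 for Acadvl, the enzymes for short, medium, long and very long chains, with limma adjusted p from 0.135 to 0.988. Acadvl shares 42.9% of its exon bases with Dvl2 on the opposite strand. The trifunctional protein subunits Hadha and Hadhb had -0.33 and -0.24, the thiolase gene Acaa2 -0.57, the enoyl-CoA isomerases Eci1 and Eci2 -0.31 and -0.30, and Etfdh, which passes the electrons on to ubiquinone, -0.23. Bdh1, which interconverts the ketone bodies, stood at 12049 ± 1481 in KO livers and 13748 ± 933 in WT livers (log2 fold change -0.20, limma adjusted p = 0.543). Transcripts encoded by the mitochondrial genome took 0.662% to 0.816% of reads in KO livers, 0.605% to 0.801% in KI livers and 0.699% to 1% in WT livers, and the part of this in the results was not tested.

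Fabp1 and Acsl1, of fatty acid binding and activation, fell, Crat rose, and the other 3 members of the carnitine shuttle did not pass. Fabp1, the abundant cytosolic fatty acid carrier of hepatocytes, had 130642, 73325 and 61501 in KO livers, against 200343, 155807 and 228238 in WT livers (log2 fold change -1.20 ± 0.31, limma adjusted p = 0.041). Acsl1, which makes acyl-CoA from long-chain fatty acids, had 43422, 23208 and 18795 in KO livers, against 61197, 54377 and 81092 in WT livers (log2 fold change -1.28 ± 0.30, limma adjusted p = 0.0302). KO_1 lay nearest to WT for both genes, and no KO library reached a WT library. Crat, which moves acetyl groups between CoA and carnitine, had 2323, 4026 and 3813 in KO livers, against 1710.2, 1321 and 1691 in WT livers (log2 fold change 1.07 ± 0.21, limma adjusted p = 0.013). Cpt1a, the rate-controlling enzyme of mitochondrial entry, was at 19128 ± 4800.5 in KO livers and 19835 ± 429.7 in WT livers (log2 fold change -0.08 ± 0.21, limma adjusted p = 0.852). Cpt2 and the translocase gene Slc25a20, the next steps of the shuttle, had log2 fold changes of -0.40 and -0.30 with limma adjusted p of 0.13 and 0.136.

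The receptor and the secreted factors did not pass the test. Ppara itself had 5702, 6739 and 4426 in KO livers, against 8235, 7689.9 and 5933 in WT livers, with overlapping groups (log2 fold change -0.38 ± 0.20, limma adjusted p = 0.262). Creb3l3, which encodes a membrane-bound transcription factor of the fasting liver, was at 15967 ± 1552 in KO livers and 17683 ± 403 in WT livers (log2 fold change -0.15, limma adjusted p = 0.501). Fgf21, the fasting hormone of the liver, had 85.2, 233 and 310.4 in KO livers, against 20.1, 13.5 and 29 in WT livers. All KO values stood above all WT values, and its KI values ranged widely (log2 fold change 3.14 ± 1.12, limma adjusted p = 0.114). Angptl4, which encodes an inhibitor of lipoprotein lipase, had 10175, 10841 and 9329 in KO livers, against 7060.3, 7356 and 4062 in WT livers (log2 fold change 0.76 ± 0.23, limma adjusted p = 0.0695). DESeq2 on the recovered reads called both higher, with adjusted p of 0.0456 for Fgf21 and 0.026 for Angptl4.

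Of the remaining targets, Vnn1 encodes pantetheinase, which releases pantothenate, and Pdk4 a kinase that inhibits pyruvate dehydrogenase. Vnn1 had 156, 628 and 912 in KO livers, against 142, 80 and 178 in WT livers, so KO_2 and KO_3 stood out and KO_1 lay within WT (log2 fold change 1.81 ± 0.61, limma adjusted p = 0.0953, DESeq2 adjusted p = 0.00208). Pdk4 had 221, 246 and 409 in KO livers, against 318, 105 and 182 in WT livers (log2 fold change 0.62 ± 0.40, limma adjusted p = 0.381).

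**Figure D4:**
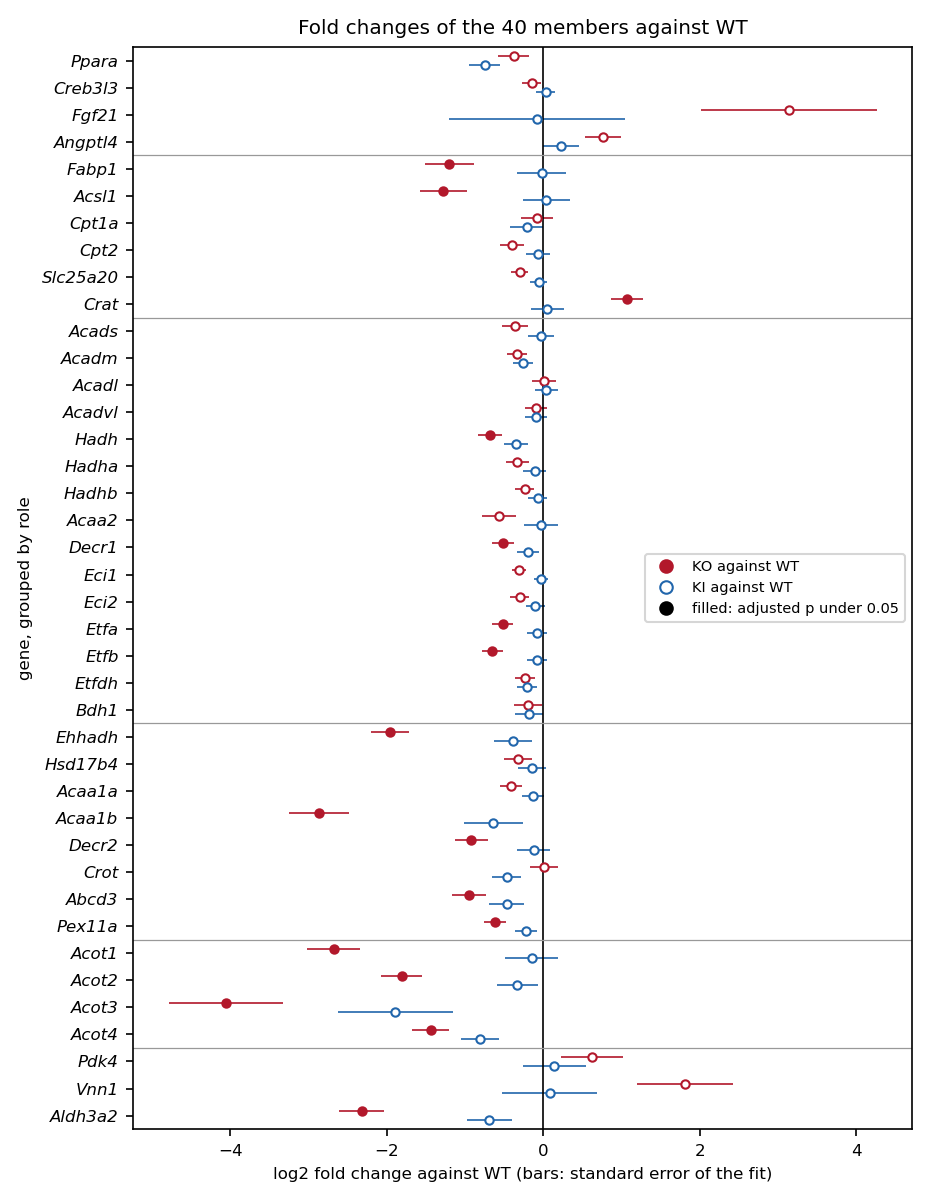
Points are log2 fold changes against WT of the 40 members by role, KO in red above KI in blue, with bars for the standard error of the fit and filled points for an adjusted p under 0.05. In KO 17 points are filled, 16 of them left of 0, and in KI none is filled.

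The KO libraries were not alike. Among the 16 members called lower, KO_1 was the highest KO library for 12 and KO_3 the lowest for 10. The order was not counted over all genes called lower. KO_1 was also the KO library with the smallest share of acute phase reads, 8.6% against 21.6% in KO_2 and 22.3% in KO_3. The 8 hepatocyte markers had mean log2 deviations from WT of 0.18, -0.12 and -0.72 in KO_1, KO_2 and KO_3, with 2, 3 and 8 of them below the WT mean. They were in the same order as the members, and the part of either list in the results was not tested. Among the thioesterases KO_1 was the highest KO library for Acot1 and Acot2 and the lowest for Acot3 and Acot4. Their mean log2 deviations from WT were -2.63, -2.45 and -2.41 in KO_1, KO_2 and KO_3, where the value of KO_1 includes the low Acot3 count of 4.06. Peroxisomal members stood at -0.62, -1.11 and -1.28, and mitochondrial members at -0.23, -0.33 and -0.50.

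Of the calls in KO, 7 were kept whichever library was left out, namely Ehhadh, Acaa1b, Acot1, Acot2, Acot3, Acot4 and Aldh3a2. The count of members called lower was 19 without KO_1, 8 without KO_2, 8 without KO_3, 7 without WT_1, 8 without WT_2 and 9 without WT_3. Over all genes, those called lower numbered 1412, 235, 331, 233, 239 and 264 in the same fits, beside 640 with all libraries. Without the 3 libraries that carry pancreatic transcripts, which leaves 3 KO, 1 KI and 2 WT libraries, limma called 0 of the 40 and 30 genes in all. In that fit the 7 genes had log2 fold changes from -4.49 to -1.34 with adjusted p from 0.0832 to 0.108, and the median over members was -0.41. When libraries were instead scaled to totals without acute phase and pancreas genes, the median of all genes moved to 0.25, the calls in all were 1414 higher and 363 lower in place of 706 and 640, and 2 members were higher and 11 lower. Under that scaling the median of the members was -0.12, and 6 uncalled members changed sign.

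Beyond the members, 67 tested genes of the same pathways were followed, from lists chosen by role. These lists too were chosen with earlier results of these data known, so their shares are not independent support. Of these 67 genes 10 fell in KO and 0 rose by limma, which is 14.9% beside 4.20% of all genes and 0% beside 4.63%. At an unadjusted p under 0.05 there were 4 higher and 24 lower of 67, beside 1956 higher and 1852 lower of all 15238. By edgeR 0 of the 67 were higher and 4 lower, beside 715 and 495 of all genes. By DESeq2 3 were higher and 18 lower, beside 1210 and 1084 of all genes. The median log2 fold change of the 67 was -0.28. The calls depended on scaling and on single libraries. When libraries were scaled to totals without acute phase and pancreas genes, 6 of the 67 were called higher and 2 lower, beside 1414 and 363 of all genes. Only 1 was called lower without KO_2, without WT_1 or without WT_2, beside 235, 233 and 239 of all genes. Cyp4a10, a fatty acid omega-hydroxylase and marker of PPAR-alpha activity in rodents, had 136, 207 and 201 in KO livers, against 2591, 3316 and 2217 in WT livers (log2 fold change -3.90, limma adjusted p = 0.006). Hsd17b10, a mitochondrial hydroxyacyl-CoA dehydrogenase, averaged 3528 in KO livers and 6999.5 in WT livers (log2 fold change -1.04, limma adjusted p = 0.0142). Sirt3, the mitochondrial deacetylase, and Acat1, the thiolase of ketone body metabolism, had log2 fold changes of -0.70 and -0.64 with limma adjusted p of 0.0219 and 0.0288. Mitochondrial oxidation and ketogenesis held 5 of the 10, out of 12 tested.

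The Tudor domain was examined by setting KI against WT. No member was called by limma, beside 0.00656% of all genes higher and 0.0197% lower, 4 genes in all. At an unadjusted p under 0.05 there were 0 members higher and 6 lower, beside 807 higher and 962 lower of all 15238 genes. By the count models, edgeR called 0 members, beside 0 higher and 1 lower of all 15238 genes. DESeq2 called 1 member lower, Ppara, beside 172 higher and 213 lower of all genes. The median log2 fold change of the members was -0.12, with 33 of 40 negative, and that of all genes was 0.00. That median was -0.04 without KI_1, where 10 members changed sign, -0.21 without KI_2 and -0.07 without WT_1. Under the scaling without acute phase and pancreas genes 4 of the members changed sign. KI values lay below all WT values for 8 members, which is 20% of 40, beside 10.2% of all genes, and above them for 0, beside 9.47%. Of the 67 other pathway genes, from lists chosen with earlier results known, limma called 0. Their median log2 fold change was -0.21, with 49 negative and 18 positive, and single genes ran from -4.42 to 1.25. Without overlap, 14 of the 67 were lower and 4 higher, beside the same shares of all genes.

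Ppara had 3586, 5310.4 and 4159 in KI livers, against 8235, 7689.9 and 5933 in WT livers. Every KI library was below every WT library (log2 fold change -0.75 ± 0.20, limma adjusted p = 0.193, DESeq2 adjusted p = 0.0259). Acaa1b had 14049, 24351 and 23453 in KI livers, against 31268, 29376 and 33062 in WT livers (log2 fold change -0.64 ± 0.38, limma adjusted p = 0.564). Aldh3a2 had 6399, 10677 and 8244 in KI livers, against 14475, 13673 and 12031 in WT livers (log2 fold change -0.69 ± 0.29, limma adjusted p = 0.395). Neither overlapped between the groups, and neither passed. Acot3 had 33.3, 119 and 69.5 in KI livers, against 428, 255 and 133 in WT livers, and Acot4 had 1055, 1845 and 1913 in KI livers, against 3103, 2094 and 3120.1 in WT livers (log2 fold changes -1.89 and -0.81, limma adjusted p = 0.356 and 0.233). Hadh, Ehhadh and Abcd3 were the other members without overlap, with log2 fold changes of -0.35, -0.39 and -0.47.

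Genes at the entry of the pathway were close to WT in KI. The log2 fold change was -0.02 ± 0.31 for Fabp1, 0.04 ± 0.30 for Acsl1, 0.05 ± 0.21 for Crat and -0.21 ± 0.21 for Cpt1a. Mitochondrial members ranged from -0.35 to 0.04, with a median of -0.09. Fgf21 varied most, at 2.15, 15.5 and 148 in KI livers, against 20.1, 13.5 and 29 in WT livers, so its KI mean of 55.2 ± 80.6 rests on KI_3. Creb3l3 and Angptl4 had log2 fold changes of 0.03 and 0.23.

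The KI libraries differed from each other in these genes. KI_1 was the lowest KI library for 34 of the 40 members and KI_2 the highest for 32. This order was not counted over all genes. KI_1 lay below every WT library for 31 members, KI_3 for 21 and KI_2 for 8, which can be set beside 32.5%, 31.5% and 27.0% of all genes tested. KI_1 and KI_3 are the libraries of this group with pancreatic transcripts and KI_2 is without them. WT_3, with 1.24% of reads from the pancreas markers, had a mean log2 deviation over the members of -0.04, and WT_1 and WT_2 had 0.10 and -0.06. KI_1, KI_2 and KI_3 were at -0.50, -0.04 and -0.13, and the hepatocyte markers were at -0.40, 0.06 and -0.31, with 7, 3 and 6 of the 8 below the WT mean. The part of the pancreatic transcripts and of the hepatocyte markers in this was not tested. Without the 3 libraries that carry them, which leaves KI_2 alone in its group, the median of the members in KI against WT was 0.00.

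**Figure D5:**
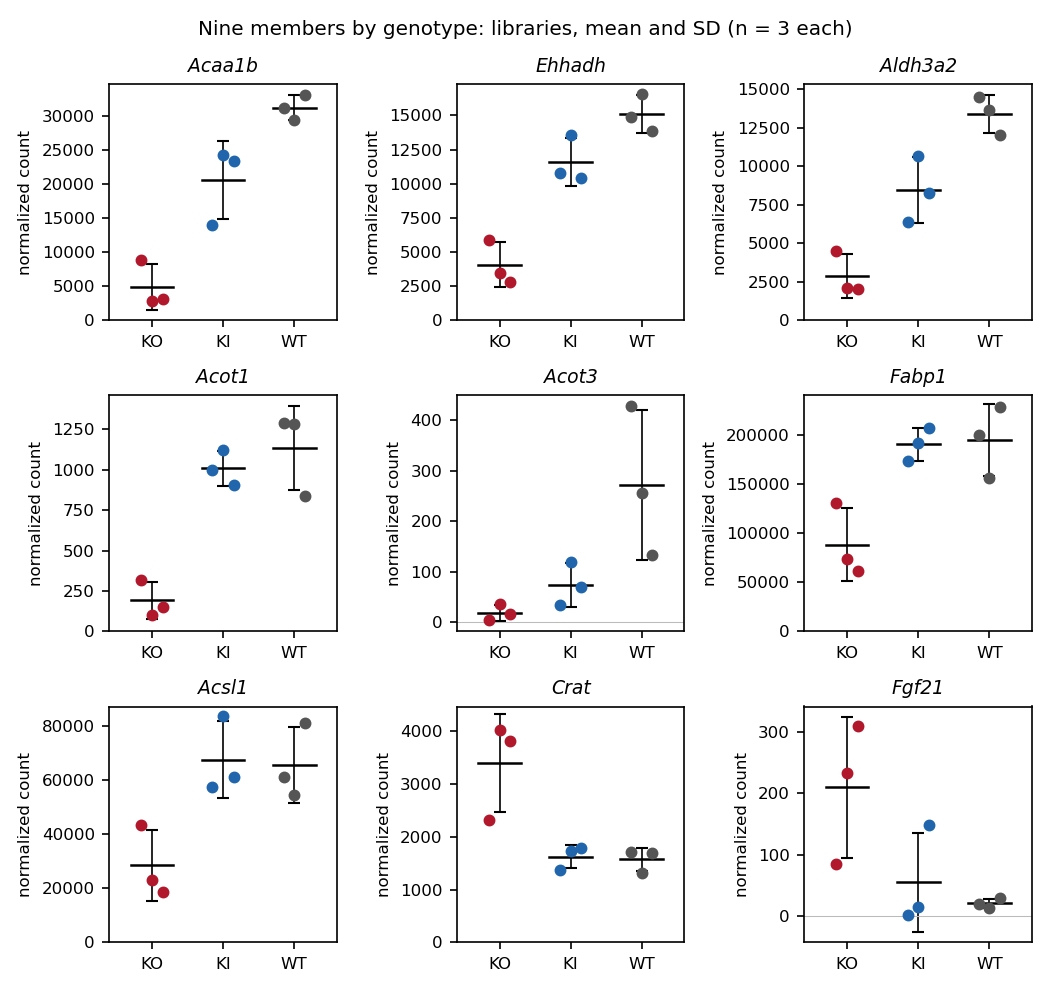
Points are the normalized counts of the 3 libraries of each genotype for 9 members, with a line at the mean and bars for the SD, on linear axes that include 0. Acaa1b, Ehhadh and Aldh3a2 have KI between KO and WT, while KI overlaps WT in Fabp1, Acsl1 and Crat.

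KI was also set against KO, to ask whether the domain mutant differs from the loss of the protein. Of the 40 members 9 were higher in KI and 1 lower, which is 22.5% beside 3.60% of all genes and 2.5% beside 4.85%. Without overlap, 13 members were higher and 3 lower, beside 12.3% and 14.1% of all genes. This comparison shares its KO libraries with KO against WT and its KI libraries with KI against WT, so it is not independent of them. Acot1 had 999, 1121 and 906 in KI livers, against 320.5, 104 and 154 in KO livers (log2 fold change 2.53 ± 0.34, limma adjusted p = 0.00276). Ehhadh had 10796, 13607 and 10412 in KI livers, against 5915, 3496 and 2788 in KO livers (log2 fold change 1.58 ± 0.24, limma adjusted p = 0.00446). Acaa1b was higher by 2.23 (adjusted p = 0.00801), Acot2 by 1.48 (adjusted p = 0.00923) and Aldh3a2 by 1.63 on the log2 scale (limma adjusted p = 0.00968). These 5 were called whichever library was left out.

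Etfb, Acsl1, Fabp1 and Decr2 were the other members higher in KI than in KO, with log2 fold changes of 0.57, 1.32, 1.18 and 0.80 and limma adjusted p of 0.0229, 0.028, 0.0446 and 0.0464. Crat was lower in KI, at 1626 ± 222 in KI livers and 3388 ± 928 in KO livers (log2 fold change -1.03, limma adjusted p = 0.0163). Acot3 and Acot4 were not called between these genotypes, with log2 fold changes of 2.17 and 0.63 (limma adjusted p = 0.0949 and 0.146). Ppara had a log2 fold change of -0.37 (adjusted p = 0.278), with overlapping groups. The call of Crat was lost without KO_2, KO_3 or KI_1. Over all genes, 160, 293, 449 and 207 were called higher in KI without KO_2, KO_3, KI_2 and KI_3. That number was 1235 without KO_1, beside 548 with all libraries. The count of members higher in KI was 5 without KO_2, KO_3, KI_2 or KI_3, and it was 13 without KO_1. That count was 2 with the pancreas share as a covariate and 0 without the libraries that carry pancreatic transcripts, where 4 genes were called in all. With the replicate block, 8 members were higher and 3 lower, beside 634 and 866 of all genes. Of the 67 other pathway genes 1 was higher in KI and 3 lower, 1.49% and 4.48%, no more than the 3.60% and 4.85% of all genes. The higher one was Acadsb, a dehydrogenase for branched short chains (log2 fold change 0.67, adjusted p = 0.038). The lower ones were Ppargc1a, which encodes the coactivator PGC-1alpha, Dbi, which encodes acyl-CoA binding protein, and Plin2, a lipid droplet coat protein gene. Their log2 fold changes were -1.37, -0.60 and -0.88, with limma adjusted p of 0.0295, 0.0294 and 0.0345.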

How the data were processed

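RNA from 9 mouse livers, 3 per genotype, was sequenced from stranded mRNA libraries. TopHat2, Bowtie2, featureCounts and the GRCm38 build are named per the submitters' processing notes. Versions, annotation, strand setting and scaling tool are not given in the sources used here. The authors deposited a table of signal values named normalized counts. Each column holds whole multiples of a step, so read counts had been divided by a size factor, and undoing that gave whole reads for at least 99.995% of values per library (tolerance 0.0051 units, 5 values not whole). These reads, 59678412 to 66384374 per library, served edgeR 4.0.16 and DESeq2 1.42.0 as alternatives.

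Testing used limma 3.58.1 in R 4.3.3 on log2(value + 1) of the deposited values, with a variance trend and 1 mean per genotype, in 15238 genes with a mean of at least 10, for KO against WT, KI against WT and KI against KO, with Benjamini-Hochberg adjustment. The procedure was tested on simulated reads with known fold changes, drawn gene by gene from WT means. They held no joint shift of acute phase or pancreatic genes in single libraries. That test therefore cannot decide how such shifts affect the calls. Every member is named, with up to 4 called genes of the other pathway lists per direction and comparison. Members and lists were chosen with earlier results of these data known. Libraries are named by genotype and replicate number in the labels. No 2 libraries of a genotype agreed within sampling noise (chi-square per degree of freedom of at least 68.1). Overlaps and lengths come from GENCODE M21.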

Additional observations from a re-analysis of the deposited data

How the results depend on the processing

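Of 2640 values of single members under alternatives, 2449 kept their direction and side of the threshold, 157 lost a call, 34 gained one and 0 calls were reversed, while 110 uncalled values changed sign. In the counts below, the cause of a change was not tested. KO against WT called 1346 genes in all by limma and 2294 by DESeq2, where 4 members were higher and, of the other pathway genes, 3 were higher and 18 lower; edgeR called 4 of those lower. Without the variance trend 800 genes were called, with 8 members and 2 other pathway genes lower. In fits of only the groups compared 871 were called and 2 members were higher. With the pancreas share as a covariate there were 766, with 10 members and 3 other pathway genes lower. Without the libraries with pancreas transcripts 30 were called, with 0 members either way and 1 other pathway gene lower. Scaling to totals without acute phase and pancreas genes gave 2 members higher, and 6 other pathway genes higher and 2 lower.

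KI against WT called 4 genes by limma, 385 by DESeq2, 1 by edgeR, 7 with a mean of at least 50, 8 with no filter, 28 in fits of only the groups compared, 7 under either other scaling, and 0 without the variance trend, with the covariate or without the libraries with pancreas transcripts. DESeq2 called 1 member lower, and 1 other pathway gene higher and 2 lower. KI against KO called 1287 genes by limma, 2287 by DESeq2, 680 without the variance trend, 608 with only the groups compared, 141 with the covariate, 4 without the libraries with pancreas transcripts and 2810 when scaled without acute phase and pancreas genes. Members lower numbered 2 by DESeq2, 6 under that scaling, and 0 without the trend, with the covariate or without those libraries. Members higher numbered 5 with only the groups compared, 2 with the covariate and 0 without those libraries. Of the other pathway genes, DESeq2 called 5 higher and 5 lower. None was higher (0) under edgeR, no trend, only the groups compared, the covariate, either scaling or without those libraries, and 12 were lower under the scaling without acute phase genes and 0 under no trend, only the groups compared, the covariate or without those libraries.

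The labels do not say that replicate numbers pair the samples. Same-numbered libraries of different genotypes had correlations of their deviations from the group means from -0.14 to 0.57. Those of different-numbered libraries ran from -0.62 to 0.32. With 3 libraries per genotype these values cannot decide whether the numbers pair the samples. With the replicate block, 4 members and 1 other pathway gene were higher in KO than in WT, beside 817 of all genes. In KI against KO that block gave 3 members lower, beside 866 of all genes, and 2 other pathway genes higher, beside 634. Leaving out 1 library at a time gave 501 to 2516 genes, 7 to 19 members lower and 0 to 2 higher, and 1 to 22 other pathway genes lower and 0 to 3 higher in KO against WT. It gave 0 to 35 genes and 0 members in KI against WT. In KI against KO it gave 400 to 2301 genes, 5 to 13 members higher and 0 to 2 lower, and 0 to 12 other pathway genes higher and 0 to 4 lower. A lone remaining library is assumed to vary like the other groups. Genes at low counts, such as Acot3 in KO, are the least precise.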
